A study of Mus musculus with 32 samples.

Results

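The DEAD and DEAH box RNA helicases are ATP-driven enzymes that open RNA duplexes and strip proteins from RNA, and they were taken here as every gene whose symbol is Ddx or Dhx followed by a number and at most 1 letter. The rule found 53 genes among the 23620 listed for both cell types, 37 with a Ddx and 16 with a Dhx symbol. Members serve nearly each step in the life of an RNA: the spliceosome uses a series of them to change shape, others load messages for export, start translation, trigger decay or build ribosomes. IGF2BP3 is an oncofetal RNA-binding protein with RRM and KH domains that is known to favour CA-rich RNA, and the question put to the data was on which helicase transcripts, and where along them, its eCLIP peaks lay.

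Peaks came from 10 eCLIP libraries, in which RNA crosslinked to IGF2BP3 by ultraviolet light was pulled down with an antibody, and each library had a size-matched input (smInput) of the same sample. Lin- cells, with 3 biological and 3 technical libraries, were lineage-depleted mouse bone marrow cells infected with the MSCV-MLL-FLAG-Af4 retrovirus, selected with G418 and grown in culture with cytokines. CD11b+ cells, with 2 biological and 2 technical libraries, were by the study's methods selected with magnetic beads from splenic tumors of mice carrying MLL-Af4 leukemia. Their eCLIP labels carry the letters bm, as those of Lin- cells do, and do not name the spleen. Per the study, the eCLIP cells were WT for Igf2bp3. RNA-seq came from 12 libraries, 3 WT and 3 I3KO in each cell type, where I3KO is germline homozygous deletion of Igf2bp3 (exon 2) and both genotypes carried MLL-Af4. For RNA-seq only the authors' mean normalized count over the WT and I3KO libraries together was used. It has no spread, the Lin- and CD11b+ tables were normalized separately, and the loss of Igf2bp3 in I3KO libraries could not be checked with it. Igf2bp3 itself had a mean of 2041 in Lin- and 1355 in CD11b+ cells.

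Retained peaks, those left after the smInput filter, numbered 4040 to 10042 per Lin- library and 7085 to 10054 per CD11b+ library. Read depth is unknown, so a gene without a peak was not shown to be unbound. All 5 measured myeloid markers had the higher authors' mean in CD11b+ cells, among them Lyz2 (20990 in Lin-, 72146 in CD11b+). Of 6 progenitor markers 5 had it in Lin- cells, among them Kit (6974 and 673), and Myb did not (22676 and 37516). Itgam, which encodes CD11b, was not analysed here. Of other lineages, the 3 B cell markers summed to 8.03 in Lin- and 314 in CD11b+ cells, the 4 erythroid markers to 306 and 2213, and the T cell markers Cd4 and Cd8a to 16.6 and 6.81 (Cd3e was not analysed here). The part of these cells in the peaks was not tested.

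The 539 retained peaks on helicase genes merged into 221 sites, of which 122 were seen in 1 library only and 6 in all 10 libraries. Exactly 8 genes had a site covered in all 6 Lin- libraries. The most widely shared of each gene is printed next, to show what kinds of sequence recurred: part of a small nucleolar RNA, the last bases of an intron, the edge of an exon, and a CA repeat. Each is 30 bases of the transcribed strand on GRCm38, 5′ to 3′. Capitals mark the snoRNA Gm25128 in Ddx39b, CA words of at least 4 bases in Ddx24, and bases of the coding transcript's exon in Ddx5, Dhx16, Ddx54, Ddx39 and Ddx42. Nothing is marked in Ddx17.
Ddx39b site 6, chr17:35247183-35247212, plus strand: ATGTATGTTTGACATAGGAGCACTTGTGTG
Ddx17 site 14, chr15:79532012-79532041, minus strand: agttactaacttcatcttctcccctcttgc
Ddx24 site 1, chr12:103416138-103416167, minus strand: CACACAaACACACACACACACACACgCACA
Ddx5 site 16, chr11:106784015-106784044, minus strand: atgattattcatggttgtctttatagAATT
Dhx16 site 2, chr17:35887526-35887555, plus strand: CCCCCTGCAGCAAGgtcagcccagaggggg
Ddx54 site 5, chr5:120623155-120623184, plus strand: ctgaaactcaactttccccgctacagGCCG
Ddx39 site 6, chr8:83722861-83722890, plus strand: actgtctcctgaccatctctctgcagGTGG
Ddx42 site 3, chr11:106242849-106242878, plus strand: aagaaactcaatactttgtatttcagCCCG
The 4 windows of Ddx5, Ddx54, Ddx39 and Ddx42, whose sites lay just before the 3′ end of an intron, were placed to end 4 bases into the exon. The other windows were centred on the point covered in the most libraries. That the intron before the exon closes with AG in each of the 4 follows from this placement and is no finding on the peaks.

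Of the 53 helicase genes, 46 carried a retained peak in at least 1 library, 41 in Lin- and 29 in CD11b+ cells, and 24 in both. Among all genes with a mean of at least 10 in both tables, 55% had a peak in at least 1 library, 44% had a peak in Lin- cells, 40.2% in CD11b+ cells and 29.2% in both, against 41, 29 and 24 of the 49 helicases above that mean. Helicase transcripts were more abundant than most: their median mean count was 1805 in Lin- and 960 in CD11b+ cells, and that of genes above 10 was 747 and 469. Among genes with a mean of at least 1000 in both tables, 83.4% had a peak in Lin- cells, 74% in CD11b+ cells and 66.4% in both, and the 26 helicases of that level gave 23, 22 and 19. In any library 90.9% of the genes of that level, and all 26 of these helicases, had a peak. The counts for each role list are to be read against these shares. In this abundant class the helicase share was 88.5% in Lin- cells, 84.6% in CD11b+ cells and 73.1% in both, nearer to the background than among all genes above 10.

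A stricter rule asked for a peak in at least 2 biological libraries. At a mean of at least 10, it was met by 26 of 49 helicases in Lin- cells (53.1%, against 23.5% of all genes). In CD11b+ cells 16 of 49 met it (32.7%, against 16.7%). At a mean of at least 1000, 21 of 26 helicases met it in Lin- cells against 58% of all genes, and 13 of 26 met it in CD11b+ cells against 41.5%. Without Lin- biological library 1 the Lin- count fell from 26 to 15. That library alone had peaks on 35 helicases, where the other biological ones had peaks on 22 and 24.

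A few genes held most peaks. Ddx39b, Ddx5, Dhx9 and Ddx17 carried 281 of the 539 (52.1%), and 12 genes had a peak in a single library. The number of peaks rose with the mean count across the 53 genes (Spearman's rho = 0.81 in Lin- and 0.68 in CD11b+ cells). Across the genes with a mean of at least 10 the same measure was 0.66 and 0.50. These correlations are over genes that share the same libraries, and they are a description.

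**Figure D1:**
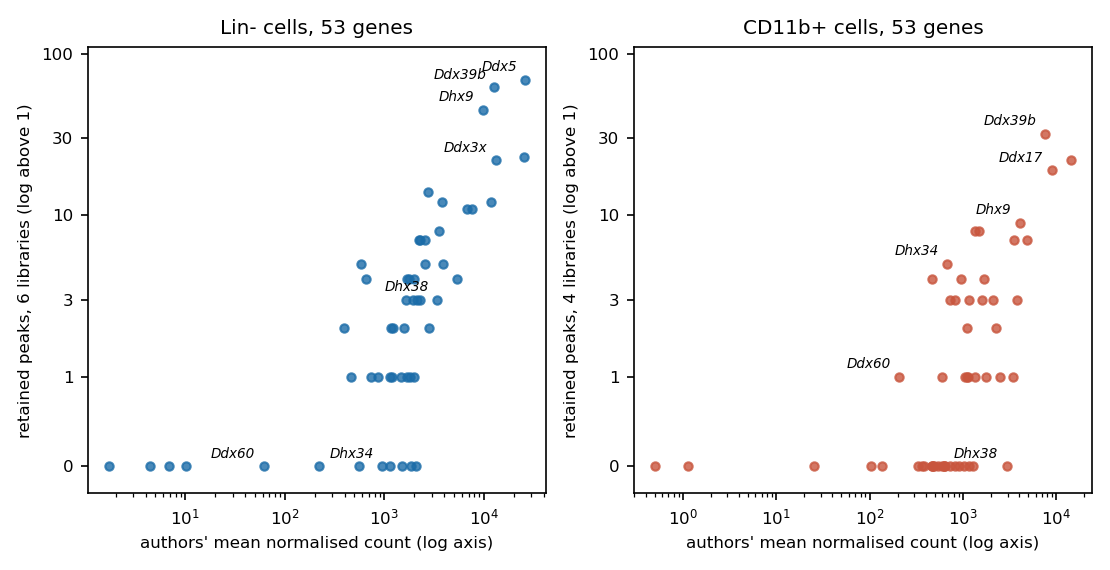
Each point is 1 of the 53 helicase genes, with the authors' mean normalised count on a log axis and the retained peaks summed over 6 Lin- or 4 CD11b+ libraries on an axis that is logarithmic above 1. Genes with more peaks lie to the right, Dhx38 has 3 peaks in Lin- and 0 in CD11b+ cells, and Dhx34 has 0 and 5.

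Ddx39b, a helicase of both spliceosome assembly and mRNA export, had the most peaks (94, at ENSMUSG00000019432 on chromosome 17). Its peaks numbered 15, 17 and 8 in the Lin- biological libraries, 7, 9 and 6 in the technical ones, 10 and 12 in the CD11b+ biological libraries and 5 and 5 in the technical ones. The ranges of the cell types overlapped. Most of these peaks, 70 of 94, lay on a pair of annotated snoRNAs inside the gene, which belong to the small RNAs that guide chemical changes on other RNAs. Gm22589 (77 bases, chr17:35242678-35242754, within the long first exon of the coding transcript) held 28 peaks and Gm25128 (76 bases, chr17:35247175-35247250, in intron 4) held 42. Both were covered in all 10 libraries. The merged site on Gm25128 had the same first and last base as the annotated snoRNA, and that on Gm22589 the same first base. The largest read number in a peak's name, which CLIPper writes there, was 242 on Gm22589 and 326 on Gm25128, and no smInput library had a peak on either.

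Outside its snoRNAs, Ddx39b differed in which positions carried peaks. Site 1, near the gene's start, was seen in 5 Lin- libraries and in no CD11b+ library, and site 9, in intron 5 at 1390 bases from its 5′ end, in 3 CD11b+ libraries and in no Lin- library.

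Small RNAs could be checked in the whole family. Of 9 annotated on the strand of 5 helicase genes, 4 carried a peak. Together they took 80 of the 539 helicase peaks (14.8%), beside 9.13% of the peaks on other genes. By library the helicase share was the higher one in all 4 CD11b+ libraries and in Lin- libraries 1, 2 and 5, and the lower one in Lin- libraries 3 (6.06% against 6.61%), 4 and 6. Mir3064, a microRNA gene in intron 11 of Ddx5, was touched by a peak in 8 libraries, and the small RNA Gm27855 in Dhx30 in 2.

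**Figure D2:**
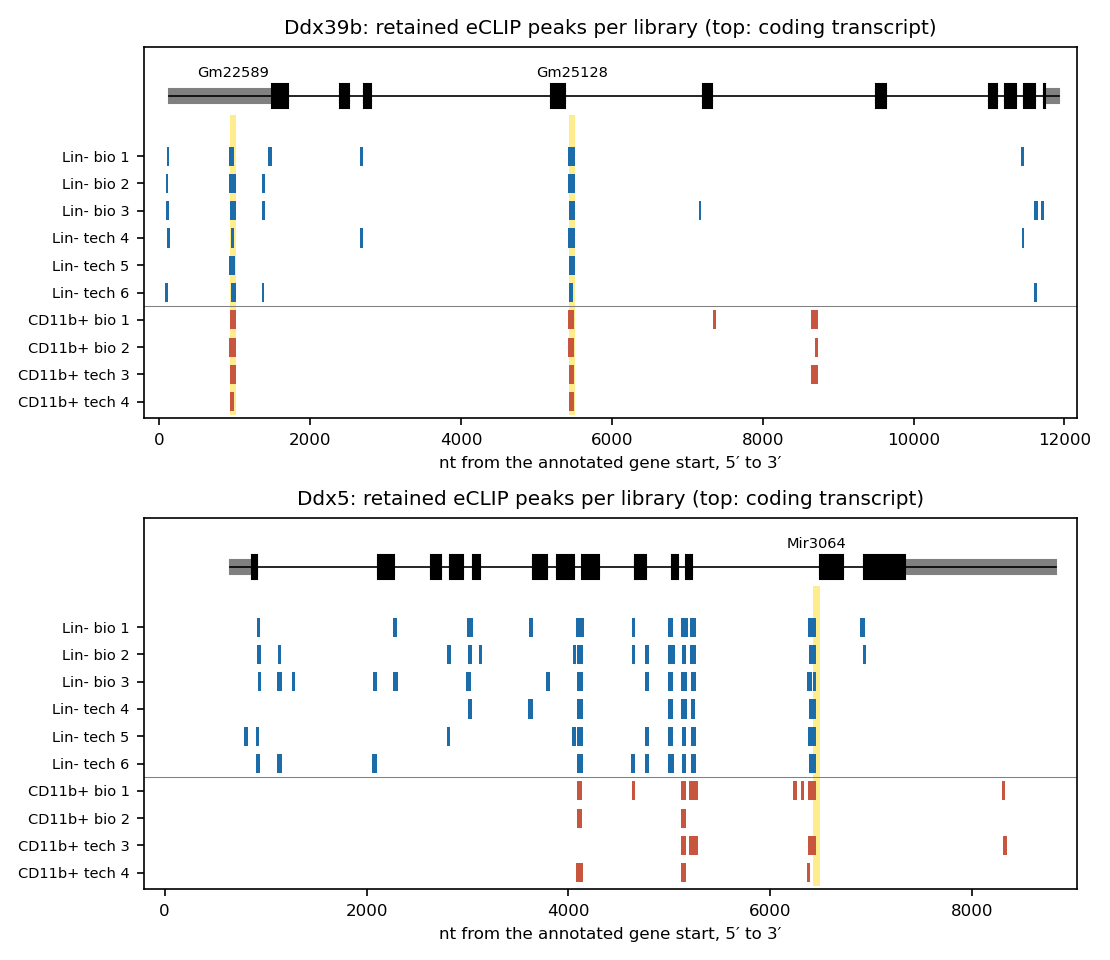
Retained peaks of each library (1 row each; blue, Lin-; red, CD11b+) along Ddx39b and Ddx5, in nt from the annotated gene start, below the coding transcript (black, coding exons; grey, untranslated exons). Peaks are drawn at least 30 nt wide. Yellow columns mark the small RNAs with a peak, Gm22589 and Gm25128 in Ddx39b and Mir3064 in Ddx5. The snoRNA columns of Ddx39b are filled in every row, and the Lin- rows of Ddx5 hold more positions than the CD11b+ rows.

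Among coregulators of transcription and of microRNA processing, Ddx5, Dhx9 and Ddx17 led. Ddx5 (p68, ENSMUSG00000020719), which assists both steroid receptors and the Drosha complex, was the most abundant helicase per kb of exon, with an authors' mean of 4493 per kb in Lin- and 2497 in CD11b+ cells. Its peaks numbered 12, 14 and 15 in the Lin- biological libraries and 7, 10 and 11 in the technical ones. In the CD11b+ libraries they numbered 11 and 2 (biological) and 6 and 3 (technical). Per 1000 retained peaks of the library, every Lin- biological library (1.39 to 1.73) was above both CD11b+ ones (1.29 and 0.20). That gap is narrow for CD11b+ biological library 1.

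The 5 Ddx5 sites covered in all 6 Lin- libraries lay in introns 7 to 11. Site 16 in intron 10 was covered in all 10 libraries, site 12 in intron 7 in 9, site 20 in intron 11, which overlaps Mir3064, in 9, and site 17 at the start of intron 11 in 8. Some annotated transcripts keep intron 11 as 3′ UTR. The smInput filter had removed 8 peaks on Ddx5, 5 from CD11b+ biological library 2 and 3 from technical library 4, all at sites 17 and 20, where CD11b+ smInput 4 had peaks. Those 5 would have raised Ddx5 from 2 to 7 peaks in library 2.

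Ddx17 (p72), the close paralog of Ddx5, had 4 peaks in each Lin- biological library and 6, 2 and 3 in the technical ones. CD11b+ libraries had 8 and 4 (biological) and 4 and 3 (technical), so the cell types overlapped. Its site 14 was covered in all 10 libraries and lies in intron 11 of the coding transcript, which other transcripts annotate as 3′ UTR. Site 5 in intron 3 was seen in all 4 CD11b+ libraries and in no Lin- library.

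Dhx9 (RNA helicase A), which unwinds long RNA duplexes and links transcription factors to RNA polymerase II, had 27 sites, more than any other member. Its peaks numbered 11, 10 and 7 in the Lin- biological and 7, 7 and 3 in the technical libraries, and 4, 2, 3 and 0 in the CD11b+ libraries. Both CD11b+ biological libraries were below the Lin- ones. Of the 27 sites, 21 were seen in Lin- cells only and 4 in CD11b+ cells only. All 4 of the latter lay in the coding part of the last exon (exon 28), and 1 of them, site 25, was covered in 3 CD11b+ libraries.

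The spliceosome list had 11 members, of which 10 were bound: 10 in Lin- and 9 in CD11b+ cells. Of its 9 members with a mean of at least 1000 in both tables, 9 had a peak in Lin- and 8 in CD11b+ cells, beside the 83.4% and 74% of all genes of that level. Dhx16, which activates the spliceosome before the first catalytic step, had a peak in every library, with 2, 1 and 1 in the Lin- biological and 2 and 2 in the CD11b+ biological libraries. Its site 2 spans the boundary of intron 13, centred 2 nt inside the intron, and was covered in all 10 libraries. Site 3, further along the same intron, was covered in all 4 CD11b+ libraries and in no Lin- library.

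Dhx15, which takes spent spliceosomes apart, had 2, 2 and 3 peaks in the Lin- biological libraries and 1 and 1 in the CD11b+ ones. Ddx42, which acts with the U2 snRNP, had 2, 1 and 1 in Lin- and 0 and 0 in CD11b+ biological libraries. Its site 3 was covered in all 6 Lin- libraries. Dhx8, which releases the finished mRNA, had 1, 0 and 1 in the Lin- and 2 and 1 in the CD11b+ biological libraries, an overlapping range, and 5 of its 8 sites were seen in CD11b+ cells only. These are counts of 0 to 3 peaks per biological library.

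Dhx38, needed for the second catalytic step, had 1 peak in each Lin- biological library, at 3 different places, and none in any other library, although its mean count was 3394 in Lin- and 2927 in CD11b+ cells. Dhx35, found in catalytic spliceosomes, was the most abundant member with no retained peak (mean 1131 in Lin- and 485 in CD11b+ cells). It had smInput peaks in 4 libraries, all at 1 place in an intron.

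Of the 4 mRNA export members, all were bound. All 4 had a mean of at least 1000 in both tables, where 90.9% of all genes had a peak. Ddx39, the paralog of Ddx39b, had 3, 2 and 3 peaks in the Lin- biological libraries and 2 and 1 in the CD11b+ ones, and its site 6 before the 3′ end of intron 9 was covered in all 6 Lin- libraries and in no CD11b+ library. Ddx19a and Ddx19b, which release export factors at the nuclear pore, had 1 peak each. Reads of such near-identical pairs may be assigned to the wrong partner, which holds also for Ddx3x and Ddx3y.

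Translation and decay members were bound in 4 of 5 cases, beside 55% of all genes with a mean of at least 10 and 90.9% of those with a mean of at least 1000. Ddx3x, which helps ribosomes through structured leaders, had 6, 10 and 2 peaks in the Lin- biological and 1 and 4 in the CD11b+ biological libraries, an overlapping range. Ddx6, of the decapping and microRNA repression machinery, had 1, 4 and 3 against 2 and 1. In Ddx6, sites 5, 6 and 7 were seen in Lin- libraries only (3, 3 and 4 of them), with site 7 in the 3′ UTR, and 4 sites in CD11b+ libraries only.

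Dhx34, a factor of nonsense-mediated decay, had a peak in every CD11b+ library (2 and 1 in the biological, 1 and 1 in the technical ones) and in none of the 6 Lin- libraries. Its authors' mean was 947 in Lin- and 671 in CD11b+ cells, so it was measured in both. The site shared by the 4 libraries spans chr7:16208166-16208456 in intron 7, about as far from the one end of the intron (2318 nt) as from the other (2015 nt). CD11b+ smInput libraries 1 and 3 had a peak elsewhere in Dhx34, at an intronic place near chr7:16202305-16202310.

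Ribosome biogenesis was the largest list and all of its 16 members had a peak somewhere, 14 in Lin- and 7 in CD11b+ cells, the latter near the 40.2% of all genes with a mean of at least 10. Of its 8 members with a mean of at least 1000, 6 had a peak in Lin- and 7 in CD11b+ cells, beside 83.4% and 74% of such genes. Ddx24 had 1, 1 and 2 peaks in the Lin- biological libraries and 1 in every CD11b+ library. All but 1 of its 11 peaks lay on the CA repeat printed above, in intron 6 at 43 nt from the 5′ splice site. Ddx21, an rRNA transcription and processing helicase and the fifth most abundant member per kb in both cell types, had 4, 2 and 1 peaks in the Lin- biological libraries and none in the CD11b+ biological ones. Ddx54 had 3, 2 and 2 against 0 and 1.

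Further members of the ribosome list had peaks in Lin- libraries alone. Ddx49 had 4 peaks over 3 Lin- libraries, Ddx55 had 4 over 3, and Ddx52 had 2 over 2. Ddx11, a DNA helicase of sister chromatid cohesion, had 2 peaks at 1 site, 16 nt before the 3′ end of intron 21. The reverse held for Ddx50, the paralog of Ddx21, with 1 peak in each CD11b+ biological library, at 1 place in intron 2. Ddx50 also held a narrow smInput peak around chr10:62640007-62640011 in 9 of 10 smInput libraries, at another place than its eCLIP peaks.

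Of the remaining lists, all 5 innate sensing members had a peak, 4 in Lin- and 3 in CD11b+ cells (Ddx58 and Dhx58, sensors of viral RNA, with 2 and 1 in Lin- cells only) and 1 of 2 mitochondrial ones did (Dhx30). Of all genes with a mean of at least 10, 55% had a peak in any library, and 90.9% of those with at least 1000 did. The 3 measured germline members, Ddx4, Ddx25 and Ddx43, had none and means of at most 25.1. The other members without a peak were Ddx28 (557 in Lin-, 360 in CD11b+), Ddx59 (222 and 137) and Ddx3y (6.88 and 103). Among 8 measured helicases of the same superfamily with other names, 7 had a peak in at least 1 library, beside 55% of all genes with a mean of at least 10 and 90.9% of those with a mean of at least 1000, led by Eif4a1 with 18 peaks in Lin- and 19 in CD11b+ cells.

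**Figure D3:**
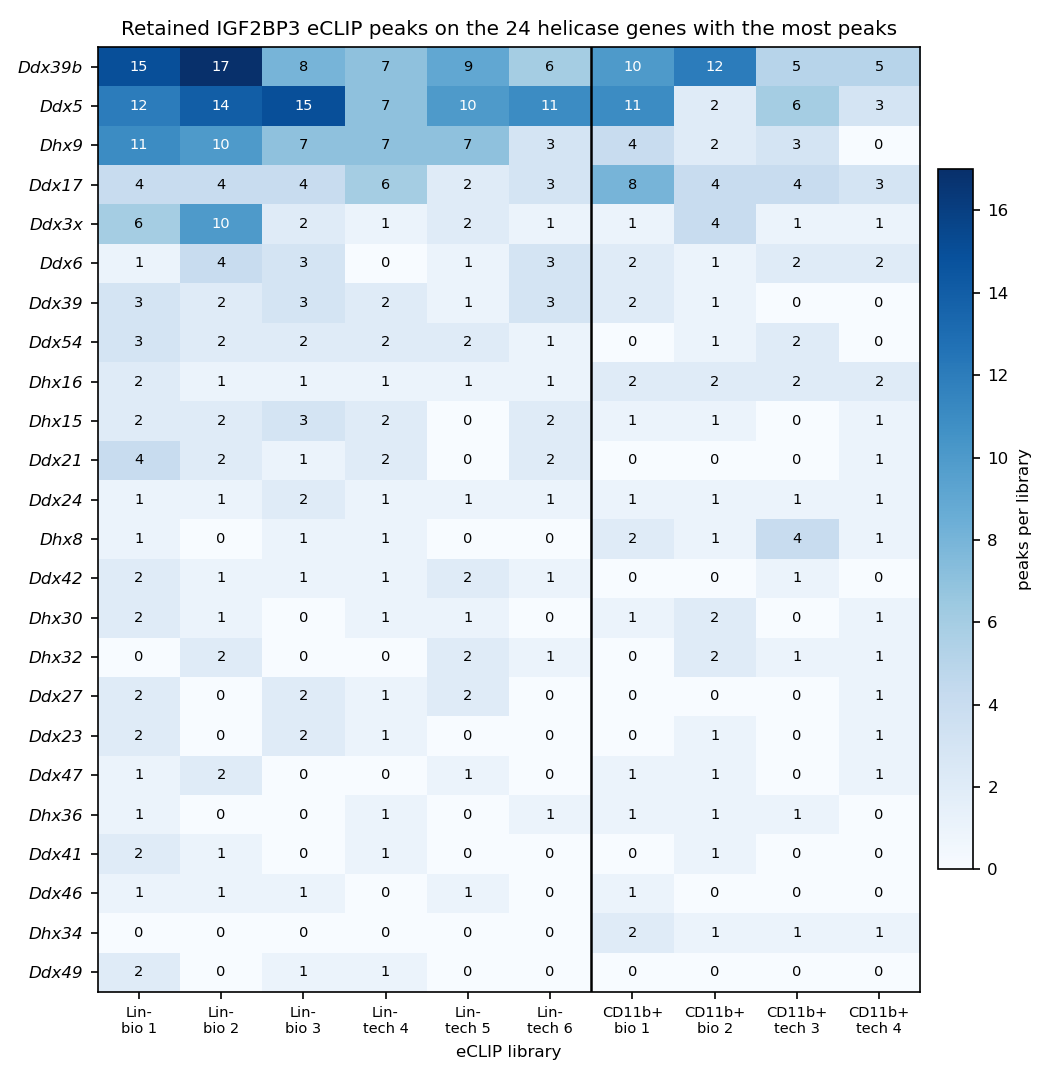
Number of retained peaks on the 24 helicase genes with the most peaks (rows) in each eCLIP library (columns; bio, biological; tech, technical), with darker cells for more peaks. Ddx39b and Ddx5 have peaks in every library, with 2 to 17 per library, and Dhx34 has peaks in the CD11b+ columns only.

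Taken per 1000 retained peaks of the library, 7 of the 44 helicases with a peak in a biological library were higher in all 3 Lin- biological libraries than in both CD11b+ ones (Ddx5, Dhx9, Ddx54, Dhx15, Ddx21, Ddx42 and Dhx38), beside 9.94% of all genes with such a peak. The reverse was seen in 2 (Dhx34 and Ddx50), beside 11.7% of all genes. With counts this low, a single peak decides several of these orders.

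The share of a library's peaks on helicase genes gives the family's total. In the Lin- biological libraries it was 1.28% (95% exact Clopper-Pearson interval 1.03 to 1.56), 0.817% and 0.760%. The CD11b+ biological libraries gave 0.599% and 0.448% (0.327 to 0.598). All 3 Lin- libraries were above both CD11b+ ones, with means of 0.951% ± 0.284 (SD, n = 3) and 0.523% ± 0.107 (SD, n = 2). The exact two-sided permutation test gave p = 0.2 (adjusted p = 0.32 over 8 tests), in a design that allows no p below 0.1. Technical libraries ran from 0.724% to 1.19% in Lin- and from 0.409% to 0.461% in CD11b+ cells. Intervals cover counting error only, and neighbouring peaks are not independent.

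None of the 8 tests could reach 0.05, since the smallest p is 0.1 between cell types and 0.062 over 5 paired libraries. Sizes and the number of libraries of 1 direction are therefore given beside each p.

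Helicase genes held a larger share of eCLIP peaks than of input peaks in each biological pair. Before the filter they held 0.675% ± 0.234 (SD, n = 5) of the peaks of the biological eCLIP libraries and 0.197% ± 0.0339 of those of the matched smInput libraries. The difference of 0.478 ± 0.230 percentage points was positive in 5 of 5 pairs (exact sign permutation p = 0.062, the smallest this design allows; adjusted p = 0.167). It was 0.608 in Lin- and 0.283 in CD11b+ cells. Input peaks were called with other settings and rest on 2 to 4 helicase peaks per biological library. Technical smInput 5 of Lin- cells had 0 of 217 peaks on helicases, which allows a share of up to 1.38% when 3 counts of the total are taken as the limit of a count of 0 (the exact 95% interval ends at 1.69%). The filter removed 9 of 548 helicase peaks (1.64%), 8 on Ddx5 and 1 on Dhx32, where it removed 15.5% of all eCLIP peaks.

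**Figure D4:**
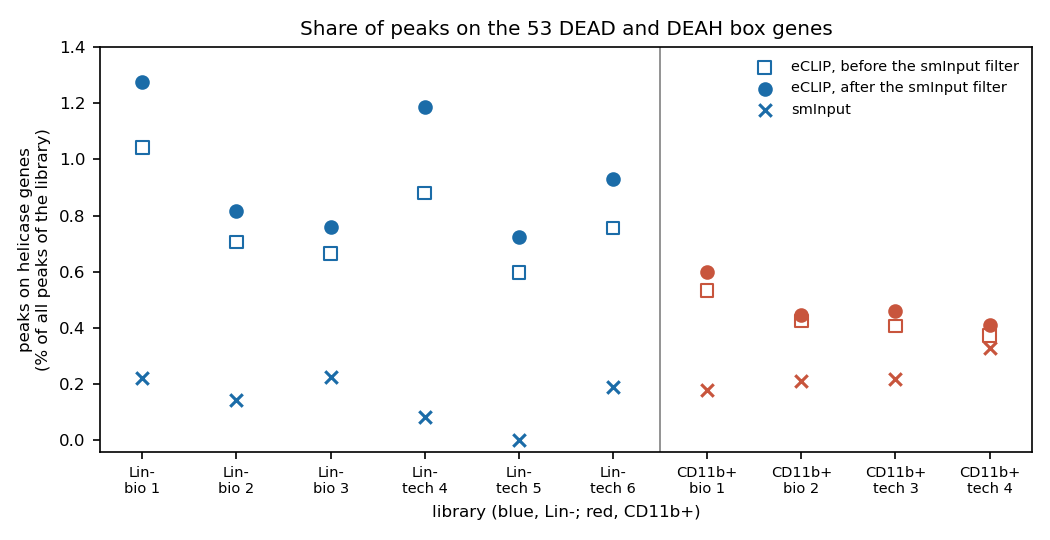
Percent of each library's peaks that lie on the 53 helicase genes, for eCLIP peaks before (open squares) and after (filled circles) the smInput filter and for smInput peaks (crosses). Each eCLIP point is above its input, by the least in CD11b+ technical library 4 (0.374% before the filter against 0.327%), and the Lin- circles and squares are above those of CD11b+ cells.

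Helicase peaks were mostly intronic: 356 of 539 had their midpoint in an intron, 62 in a 3′ UTR, 39 in a 5′ UTR, 23 in coding sequence and 59 in other exons. The UTR peaks lay on few genes. Ddx39b held 28 of those in 5′ UTRs in Lin- and 8 in CD11b+ cells. Most of these Ddx39b peaks, 28 over both cell types together, lay on the snoRNA Gm22589. In 3′ UTRs, Ddx5 held 15 in Lin- and 12 in CD11b+ cells, and Ddx17 held 7 and 12. In the biological libraries the intronic share was 66.2% ± 11.7 (SD, n = 5) on helicases and 64.3% ± 10.3 on other genes (exact sign permutation p = 0.688, adjusted p = 0.8). Lin- (68.1% ± 10.5, n = 3) and CD11b+ helicase peaks (63.3% ± 17.4, n = 2) overlapped in this share (exact permutation p = 0.7, adjusted p = 0.8). When a peak that touches an exon at any base was counted as exonic, the direction turned, with a Lin- minus CD11b+ difference of -30.1 percentage points.

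The 3′ UTR share was 11.4% ± 8.65 on helicases and 5.94% ± 3.97 on other genes (SD, n = 5), higher in 4 of 5 libraries (exact sign permutation p = 0.125, adjusted p = 0.25). With basic transcripts only, the difference shrank from 5.46 to 0.57 percentage points (exact sign permutation p = 0.438). The helicase share spread most between the CD11b+ libraries, with 25.5% in biological library 1 and 4.44% in library 2. From library 2 the smInput filter had removed 5 helicase peaks, all on Ddx5 and most of them in its 3′ UTR. Before that filter the difference between helicases and other genes was 7.50 percentage points (exact sign permutation p = 0.062, the smallest possible).

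Intronic helicase peaks lay close to splice sites. Within 200 nt of one lay 71 of 71, 42 of 46 and 46 of 48 of them in the Lin- biological libraries, and 17 of 26 and 22 of 34 in the CD11b+ ones. The mean share was 83.4% ± 17.1 on helicases and 49.2% ± 27.2 on other genes (SD, n = 5), higher by 34.2 ± 11.7 percentage points in 5 of 5 libraries (exact sign permutation p = 0.062, the smallest possible; adjusted p = 0.167). The difference was 28.6 in Lin- and 42.8 in CD11b+ cells. The introns of these helicases also hold more such sequence: 27.7% to 44.5% of it per library, weighted by peaks, lay within that distance of a splice site, against 12.0% to 23.9% for other genes. The part of this in the result was not tested. Peaks on the snoRNA Gm25128 of Ddx39b, 78 nt from the 5′ splice site of intron 4, count here as within 200 nt. They numbered 6, 7 and 2 in the Lin- biological libraries and 6 and 7 in the CD11b+ ones. Without peaks on annotated small RNAs, an alternative added after seeing the data, the difference was 29.0 instead of 34.2 percentage points.

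Within introns, Lin- helicase peaks lay most often just before the 3′ splice site, where the branch point and the pyrimidine tract sit. This measure was chosen after the values were seen and is given without a test. On the coding transcript, 195 of 328 intronic helicase peaks of the 6 Lin- libraries had their midpoint within 40 nt before a 3′ splice site, 76 within 40 nt after a 5′ splice site and 57 elsewhere. In the 4 CD11b+ libraries the numbers were 27, 17 and 85 of 129. Peaks that other transcripts place in a 3′ UTR or another exon can be intronic on the coding transcript, so these totals differ from the 356 given above. Ddx17 sites 12 and 14 and Ddx5 site 20, classed as 3′ UTR over all transcripts, fall elsewhere in intron 11 here. The peaks on Gm25128 also count as elsewhere. The 3′ splice site share per library ran from 34.4% to 75.6% in Lin- and from 13.8% to 29.7% in CD11b+ cells, and the ranges did not overlap. Lin- biological library 2 was the lowest of its kind, with 21 such peaks and 25 after a 5′ splice site. Peaks on other genes had the same order at lower levels, 26.8% to 66.6% and 7.53% to 12.8%. Of sites seen only in Lin- cells, 93 of 147 were of this kind, and of those seen only in CD11b+ cells 8 of 50. The 109 such sites, Lin-, CD11b+ or shared, had a median distance of 21 nt from the exon (quartiles 17 and 26).

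**Figure D5:**
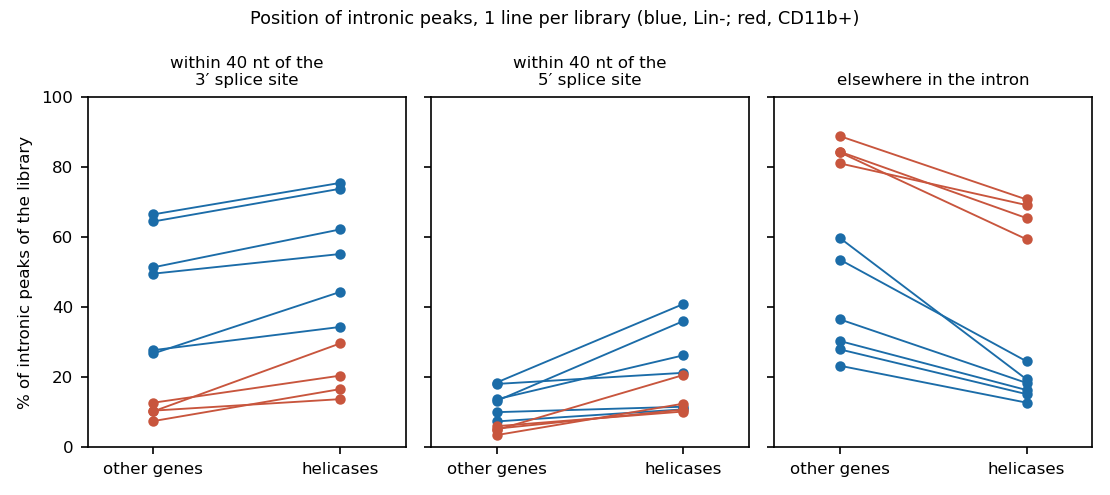
Percent of a library's intronic peaks within 40 nt of the 3′ splice site, within 40 nt of the 5′ splice site, or elsewhere, with 1 line per library from other genes to helicases (blue, Lin-; red, CD11b+). Every Lin- library lies above every CD11b+ library in the left panel for the same set of genes, and helicases lie below other genes in the right panel in all 10 libraries.

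Few helicase peaks held a CA word. ACACAC or CACACA, searched on the transcribed strand and overlapping each other by 5 bases, stood in 1 to 3 helicase peaks of each biological library. The share was 2.95% ± 1.21 (SD, n = 5), against 10.1% ± 6.08 on other genes, lower in 5 of 5 libraries by 7.14 ± 5.57 percentage points (exact sign permutation p = 0.062, the smallest possible; adjusted p = 0.167). Lin- (2.79% ± 1.13) and CD11b+ helicase peaks (3.20% ± 1.76) did not differ beyond their spread (exact permutation p = 0.8, adjusted p = 0.8). Over all libraries, 11 of the 221 sites held such a word, and the repeat of Ddx24 was the only one of them covered in more than 3 libraries. CD11b+ technical library 4 stood apart with 5 of 29 helicase peaks (17.2%), and other genes had their highest share in the same library, 23.7%. No match in a peak says only that these letters are not in that window. Helicase peaks were also narrower, with median widths of 48.5, 33 and 44.5 bases in the Lin- and 38 and 45 in the CD11b+ biological libraries. All peaks of these libraries had medians of 51, 40 and 48, and of 48 and 50. The part of peak width in the CA share was not tested.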

How the data were processed

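IGF2BP3 eCLIP was analysed in 10 libraries with 10 smInput libraries, and RNA-seq (12 libraries) through the authors' means. The authors mapped eCLIP reads to mm10, removed duplicates on molecular identifiers, called peaks per library with CLIPper (deposited p-value below 0.05) and removed eCLIP peaks against smInput. Per the file headers, smInput used other duplicate and CLIPper settings. Retained peaks overlapped no peak of their own smInput, nor of 1 further smInput of the cell type (1 and 4, 2 and 5, 3 and 6 in Lin- cells, 1 and 3, 2 and 4 in CD11b+ cells). Which technical library repeats which biological one is not labelled, so tests used biological libraries only. RNA-seq reads were mapped with STAR (2.5.3a in the submitters' processing notes). The deposited RNA-seq signal is the mean normalized count that the authors obtained with DESeq2 over WT and I3KO libraries, in 1 table per cell type. The tables also hold the authors' fold changes, p-values and marks of their own comparison, which were not used, so genotypes were not compared.

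Peaks were assigned to genes by the Ensembl ID in their name, whose last number was read as the peak's reads. All 53 symbols were matched to GENCODE M21 on GRCm38, and 100435 of 101767 peaks lay in the gene of that ID. Location was taken at the peak midpoint in the order coding, 3′ UTR, 5′ UTR, other exon, intron over all transcripts, and introns were numbered on the transcript with the longest coding sequence. Overlapping peaks of a gene over all libraries made a site. Lin- against CD11b+ was tested by exact permutation of 3 and 2 biological libraries, and helicases against other genes, or eCLIP against smInput, by exact sign permutation over 5 libraries, all two-sided, with Benjamini-Hochberg adjustment over 8 tests. smInput and eCLIP libraries of the same number come from the same sample, which is the pairing used. Nothing ties Lin- and CD11b+ libraries of the same number to a common source. Nothing states that biological libraries came from separate cultures or animals, so p-values measure only the spread between these libraries. Scripts (Python 3.11.15, pandas 2.3.3, NumPy 2.4.6, SciPy 1.17.1, pysam 0.24.0, samtools 1.23.1, matplotlib 3.10.9) were tested on simulated data.

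The helicases, role lists and tests were chosen with earlier results of these data known. Named genes were the 8 with the most sites in each cell type, those with a site in all biological libraries, those in at least 2 biological libraries of 1 cell type and none of the other, the 5 most abundant per kb and the 5 most abundant without a peak; other genes are named as list examples. Alternatives covered the smInput filter, a CLIPper p below 0.001, the libraries used, location, annotation, word length, splice distance, abundance and the member with the most peaks. Leaving out small RNAs and a mean of at least 1000 were added after seeing the data.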

Additional observations from a re-analysis of the deposited data

Results flagged for a closer look

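With location taken over all transcripts, the intronic share of peaks moved in opposite directions in the 2 cell types. On helicases it was above that of other genes in all 3 Lin- biological libraries, by 9.40 percentage points on average, and below it in both CD11b+ ones, by -16.6 points in library 1 and -2.04 in library 2 (mean -9.31). The gap between these differences was 18.7 points (exact permutation p = 0.1, the smallest that 3 and 2 libraries allow; adjusted p = 0.375 over 5 such comparisons). Without CD11b+ biological library 1 it was 11.4 points, an alternative chosen after seeing the data. All technical libraries had the direction of their cell type, but they are no independent replicates. Location was taken here at the peak midpoint. The CD11b+ direction depends on the transcripts used, since Ddx5 and Ddx17 peaks in intron 11 were classed as 3′ UTR. On the coding transcript alone, 39 of 51 helicase and 6451 of 8367 other peaks were intronic in CD11b+ library 1. In CD11b+ library 2 they were 37 of 45 and 8179 of 9887, so the shares were nearly equal in both. Helicases stayed higher in all 3 Lin- biological libraries. When any contact with an exon counted as exonic, the helicase minus other difference over the 5 biological libraries turned from 1.91 to -9.88 percentage points. With basic transcripts it was 5.21. Of the 107 intronic sites seen only in Lin- cells, 81 touched an exon.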

How the results depend on the processing

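With biological and technical libraries together, 5 results passed 0.05 in the exact test (share of peaks on helicases in Lin- against CD11b+ cells, 0.470; eCLIP against smInput, 0.459; CA words, -6.63; splice sites, 35.2; 3′ UTR, 6.57 percentage points), but technical libraries are no independent replicates. Without the replicate block, the differences paired by library kept their sizes, 0.478 for eCLIP against smInput (exact permutation p = 0.0167), -7.14 for CA words (p = 0.00794) and 34.2 for splice sites (p = 0.0476), where the block allows no p below 0.062. The intronic share turned when any contact with an exon counted, to -30.1 in Lin- against CD11b+ cells and -9.88 on helicases against other genes, and 4-base CA words turned the Lin- against CD11b+ difference to 6.42. Leaving out 1 biological library at a time moved these 3 from -7.44 (without CD11b+ library 1) to 17.1, from -0.459 (without Lin- library 1) to 6.54 and, for 6-base words, from -1.66 to 0.828 (above 0 without CD11b+ library 2 or Lin- library 3). The other ranges were 0.265 (without Lin- library 1) to 0.524 for the share on helicases, 0.392 to 0.544 against smInput, -8.56 to -4.92 for CA words on helicases against other genes, 31.3 to 37.7 for splice sites and 3.64 to 7.14 for the 3′ UTR. A CLIPper p below 0.001 left 27 helicases bound in Lin-, 16 in CD11b+ and 13 in both, with 13 and 6 in at least 2 biological libraries; fewer peaks were used. Of the helicases with a mean of at least 1000, 23 were bound in Lin- cells. The count in at least 2 Lin- biological libraries ran from 15 (without library 1) to 21. For the 2 CD11b+ biological libraries no such count was possible. With basic transcripts the 3′ UTR difference fell to 0.567. The other values kept their direction, or a count within 1.5 times, but sizes moved, and as biological libraries alone cannot reach 0.05 with the block, their side of the threshold says nothing. Peak numbers per gene of 0 to 3 limit most statements on single genes, and read depth is unknown.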
